A study of Bos taurus with 12 samples.

Results

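The enzymes described here are 10 genes of mitochondrial fatty acid beta-oxidation (ACADVL, ACADL, ACADM, ACADS, ECHS1, HADH, ACAA2, HADHA, HADHB and ETFDH) in the lactating mammary gland (MG) of Holstein cows before and during feed restriction. Their probes were found by the RefSeq transcript that the array files give for each probe. This gave 28 probes for the 10 genes, out of 43653 probes and 12787 named genes on the array. The study set out to learn how a short negative energy balance alters gene expression in the MG. RNA from biopsies of the udder was hybridised to 1-colour bovine oligonucleotide arrays, 1 array per sample, with 12 arrays in all. CONT is day 0, when the cows ate a lactation diet at will, and REST is day 6 of an allowance that covered 50% of the net energy for lactation each cow needed. All cows were Holstein, each of the 6 cows gave a CONT and a REST sample, and 50 ng of total RNA went into each labelling. The biopsies of a cow came from alternate rear glands of the udder. No array of an unrestricted cow at the later day was analysed here, so restriction cannot be told apart from time, gland or the earlier biopsy.

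The labels name 6 cows while the description of the series counts 5, so results were also computed without each cow in turn. A Holstein cow with mastitis was left out of the experiment according to the methods, and whether it is among the 6 labelled cows is not given in the sources used here. Cows 1 and 2 lay on slide 1, cows 3 and 4 on slide 2 and cows 5 and 6 on slide 3, with both periods of a cow on the same slide. Slide 3 was dimmer, as the 75th percentile of its processed signals was 73.2 to 117 intensity units per array against 252 to 390 on the other slides. Between 41.9% and 48.0% of spots were well above background on slide 3 and between 61.8% and 67.9% on the others. Signals are given as log2 of the processed intensity minus the log2 75th percentile of the array, so 0 is that percentile. They rank the samples of 1 probe and do not rank probes or genes. A change is REST minus CONT on this log2 scale, from limma's paired fit over all tested probes, with SE and n = 6 cows. A probe is called changed at a Benjamini-Hochberg adjusted p under 0.1.

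Beta-oxidation shortens fatty acids in the mitochondrial matrix by repeated removal of acetyl units. In each turn an acyl-CoA dehydrogenase makes a double bond, a hydratase adds water, a hydroxyacyl-CoA dehydrogenase oxidises the product and a thiolase splits it. The electrons of the first step reach the respiratory chain through electron transfer flavoprotein and its dehydrogenase ETFDH. In lactation the epithelium mainly makes and secretes fat from acetate, while fat stores release long-chain fatty acids when energy intake falls short.

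The genes did not move as a block after 6 days of restriction. ACADS, the short-chain acyl-CoA dehydrogenase, was lower in REST on both of its probes. ACADVL, the very long-chain enzyme, was higher on the brightest of its 4 probes, a call at the threshold (adjusted p = 0.0993). ACADM was lower on 1 of 3 probes. HADHA was higher on 2 of 3 probes but not on its brightest, and 1 of those 2 met the filter through REST only. No probe of ECHS1, HADH, ACAA2, HADHB or ETFDH was called, and ACADL was too close to background to be tested.

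Of the 28 probes, 20 were well above background on every array of at least 1 group and were tested. Of these, 6 probes in 4 genes were called, 3 higher and 3 lower in REST. Over the whole array 16.0% of 19406 tested probes were called, 7.36% higher and 8.62% lower. One of the 6, a HADHA probe, passed the filter only through its REST arrays. Among the 19 member probes well above background on all 12 arrays 5 were called. With the brightest tested probe standing for each gene, 2 of 9 genes were called, 1 in each direction, beside 16.2% of 7932 genes over the array (7.12% higher and 9.10% lower). The median change of the 9 genes was -0.06, beside -0.01 over all tested genes, and turned to 0.02 and 0.04 under the settings with another background correction (normexp, with quantile normalization or with the percentile shift). Values given with normexp from here on are those with the percentile shift. Changes of single genes ran from -0.31 to 0.26. With 9 genes, a share of 2 called is near that of the array and is not read as a result about the set.

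**Figure D1:**
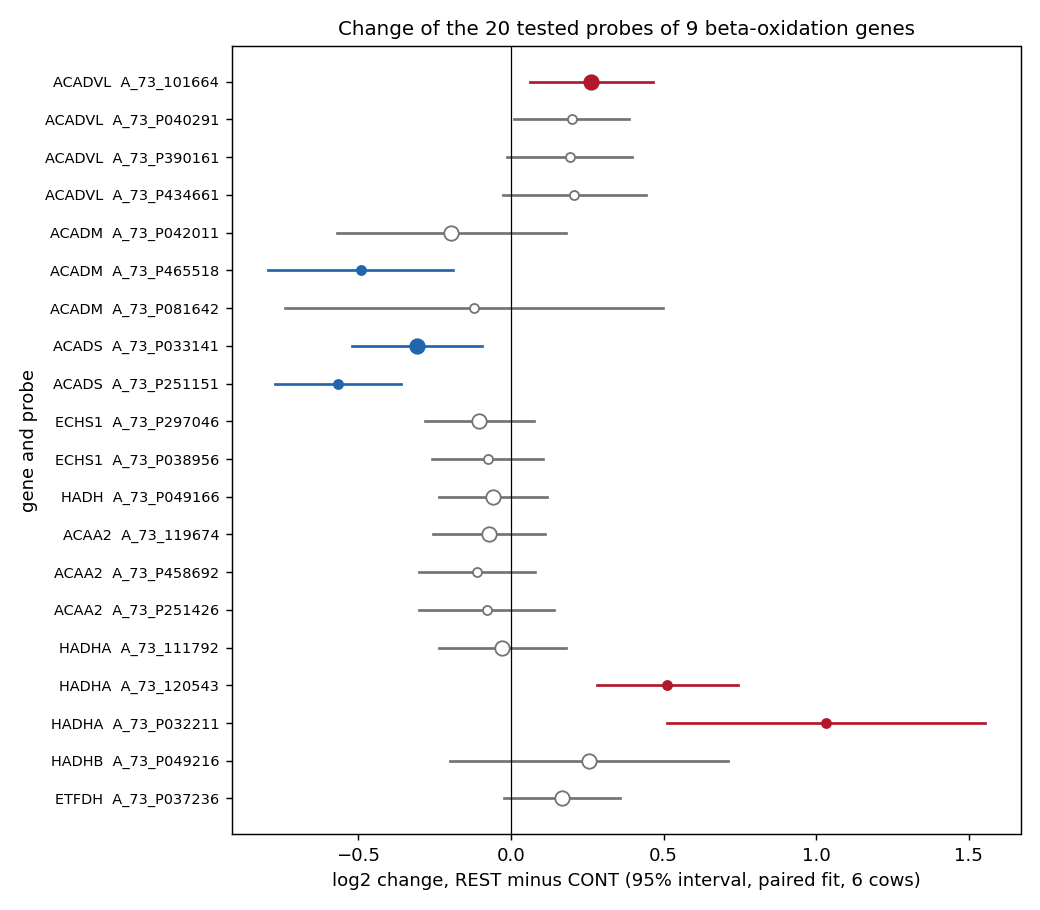
Log2 change (REST minus CONT, x axis) with its 95% interval for the 20 tested probes of 9 genes (y axis), with large circles for the brightest probe of a gene. Filled circles mark the 6 called probes (red higher, blue lower in REST), and the 2 ACADS and 4 ACADVL probes each lie on 1 side of 0 while the 3 HADHA probes spread from -0.03 to 1.03.

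With neither cow nor slide in the model, 4.28% of all tested probes were called, and 2 of the 20 member probes were, ACADS A_73_P251151 (adjusted p = 0.0342) and HADHA A_73_P032211 (adjusted p = 0.0991). No brightest probe of a member was called in that fit. With the slide as a block in place of the cow, all 6 called probes kept their call (adjusted p = 0.0151 to 0.0954), among them ACADVL at 0.0911 and the brighter ACADS probe at 0.0906. In whole biopsies, fewer cells of a type cannot be told apart from less RNA per cell.

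The acyl-CoA dehydrogenases take the first step and divide the fatty acids by chain length. ACADVL (NM_174494) handles very long chains at the inner mitochondrial membrane. On its brightest probe, A_73_101664, the CONT signal was 3.64 at the lowest, 3.77 at the median and 3.84 at the highest. In REST it was 3.84, 3.92 and 4.31. The groups met at a single point, where cow 5 in REST lay just under cow 2 in CONT, and the highest REST values were those of cows 1 and 2. The change was 0.26 (SE 0.09, 95% interval 0.06 to 0.46), with an adjusted p of 0.0993. All 6 cows were higher, by 0.05 to 0.54.

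The other 3 ACADVL probes had changes of 0.19 to 0.21, each with 5 of 6 cows higher, and none was called (adjusted p = 0.160 to 0.229). The size of the change differed by slide. On the brightest probe it averaged 0.48 on slide 1, 0.16 on slide 2 and 0.16 on slide 3. The call of ACADVL sat at the threshold. It was lost without any 1 of the 6 cows (adjusted p = 0.115 to 0.243, change 0.21 to 0.31). Of all 24 alternatives 9 kept the call, and the adjusted p ran from 0.0241 to 0.243. With the percentile taken over spots, the setting computed first, ACADVL was not called (adjusted p = 0.101). The percentile over probes was adopted after that first result, so the call rests on a choice made with results known.

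ACADL (NM_001076936), the long-chain acyl-CoA dehydrogenase, was near background. None of its 3 probes met the filter. The dimmer pair was well above background on 1 CONT array each, and on 1 and 0 REST arrays. On A_73_P271576, the brightest, 2 CONT and 4 REST arrays were well above background. Its signal was -4.67 to -3.07 in CONT with a median of -3.50, and -4.49 to -2.59 in REST with a median of -3.42. The 2 groups overlapped almost wholly, and 4 cows were higher and 2 lower.

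ACADM (NM_001075235), the medium-chain acyl-CoA dehydrogenase, had the widest spread between cows in CONT among the brightest tested probes (SD 0.59). On its brightest probe, A_73_P042011, the CONT signal was 2.45 at the lowest, 2.78 at the median and 3.95 at the highest. In REST it was 2.53, 2.75 and 3.01. Cows 3 and 5 were high in CONT and came down by 0.64 and 0.94 log2 units, while the other 4 cows moved by -0.13 to 0.33. The change was -0.20 (SE 0.17, 95% interval -0.57 to 0.18, adjusted p = 0.473), with 3 cows higher and 3 lower.

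The same 2 cows stood out on the other ACADM probes. A_73_P465518 ran from -0.95 to 0.37 in CONT with a median of -0.43, and from -1.28 to -0.44 in REST with a median of -0.70. It was lower in all 6 cows, by 0.05 to 1.03, and its change of -0.49 (SE 0.13) was called (adjusted p = 0.0579). The groups overlapped, and leaving out cow 1, 2 or 3 ended the call (adjusted p = 0.125, 0.102 and 0.112). The third probe, A_73_P081642, had a change of -0.12 (SE 0.27, adjusted p = 0.804), as cow 4 was higher by 1.40 while cows 3 and 5 were lower by 0.81 and 1.06.

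ACADS (NM_001034401) oxidises short chains such as butyryl-CoA. On A_73_P251151 the CONT signal was 0.23 at the lowest, 0.64 at the median and 0.83 at the highest. In REST it was -0.25, 0.12 and 0.15. Every REST value lay under every CONT value, which held for 1 of the 20 tested member probes. Over the array the groups did not overlap for 2.26% of tested probes, 1.48% with REST the lower. The change was -0.57 (SE 0.09, 95% interval -0.77 to -0.36), or 32.5% less signal, with an adjusted p of 0.0139. All 6 cows were lower, by 0.33 to 0.88, and the mean change was -0.62, -0.39 and -0.68 on slides 1, 2 and 3. The call held in all 22 alternatives computed for this probe (change -0.61 to -0.37, adjusted p = 0.00256 to 0.0909).

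The brighter ACADS probe, A_73_P033141, showed a smaller decrease. Its CONT signal was 2.37 at the lowest, 2.91 at the median and 3.11 at the highest, and in REST it was 2.40, 2.54 and 2.66. Cow 5 was already low in CONT and changed by 0.03, and the other 5 cows were lower by 0.27 to 0.62. The change was -0.31 (SE 0.09, 95% interval -0.52 to -0.09, adjusted p = 0.0798). It was lost without any 1 of cows 1, 2, 3, 4 and 6 (adjusted p = 0.123 to 0.210), and with normexp the change was -0.14 (adjusted p = 0.405).

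**Figure D2:**
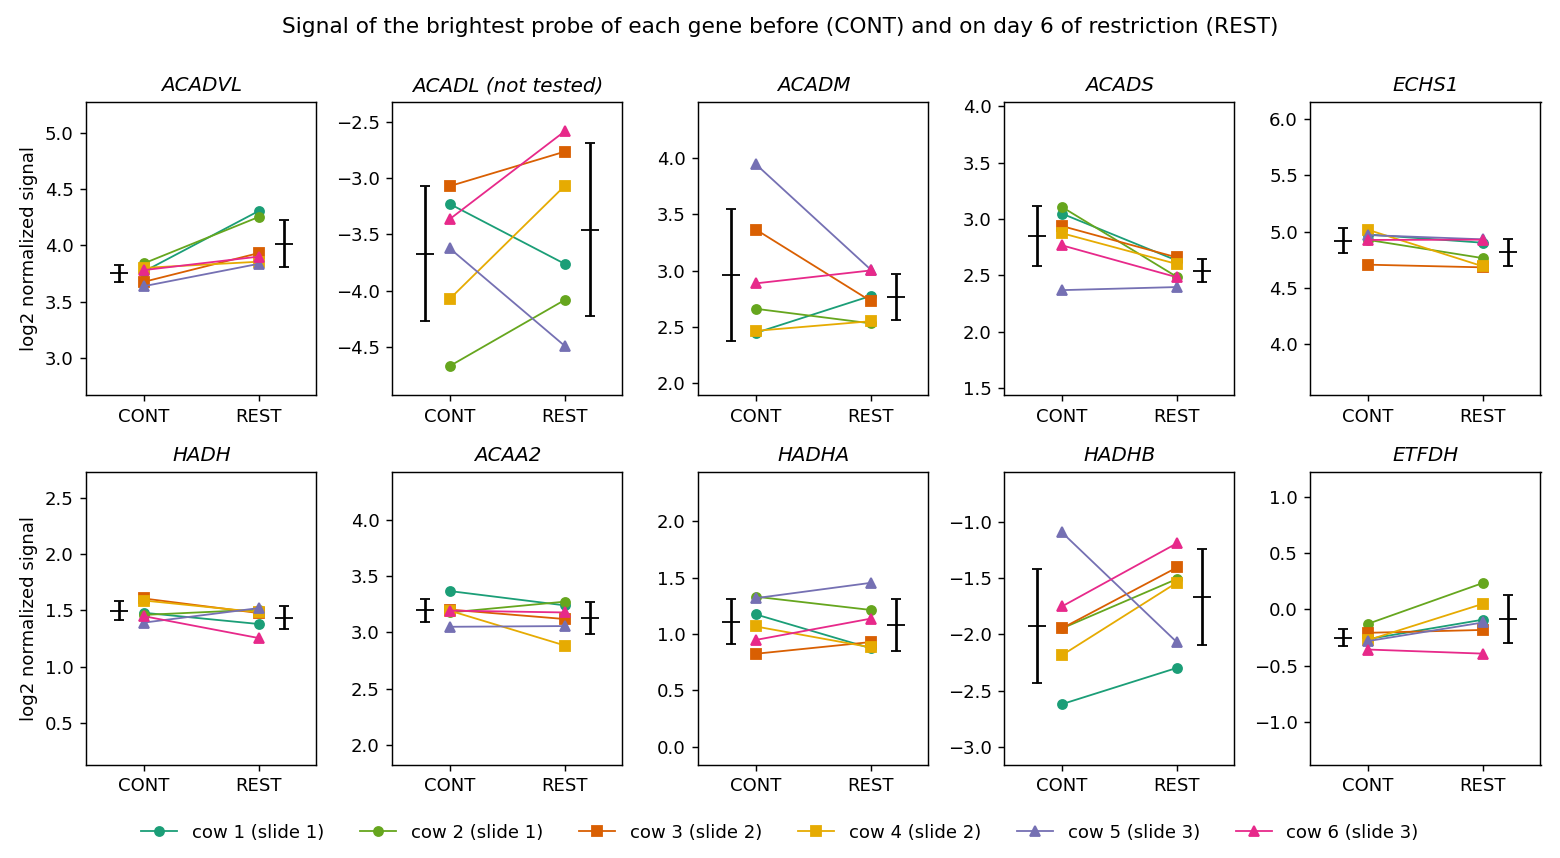
Normalized log2 signal (y axis, the same height in log2 units in each panel) in CONT and REST for the brightest probe of each gene, with 1 line per cow, colours for cows, symbols for slides, and bars for mean and SD (n = 6). The ACADVL lines all go up, 5 of 6 ACADS lines go down, and the ACADM panel shows cows 3 and 5 starting above the rest.

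On the brightest probes the ACADVL change exceeded the ACADS change by 0.57 ± 0.35 (SD, n = 6 cows), from 0.17 to 1.03. The pair was chosen after the values had been seen, so this difference is a description and was not tested.

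The 5 other genes whose within-cow changes lay closest to those of ACADS, the member with the smallest p among brightest probes, were FSD1, MEST, CSN3, MAP4K5 and C1QTNF1. Their root mean square differences over the 6 cows were 0.0538, 0.0843, 0.0883, 0.090 and 0.0904 log2 units, among 7922 genes with a median of 0.453. CSN3 is kappa-casein, a milk protein, and its change was -0.27 (adjusted p = 0.0794).

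The later steps for medium and short chains are taken by soluble enzymes of the matrix, and none of their probes was called. ECHS1 (NM_001025206), the short-chain enoyl-CoA hydratase, had a CONT signal of 4.71 at the lowest, 4.95 at the median and 5.02 at the highest on A_73_P297046. In REST it was 4.68, 4.83 and 4.93. The groups overlapped, with a change of -0.10 (SE 0.08, 95% interval -0.28 to 0.07, adjusted p = 0.422). Its other probe had a change of -0.08 (adjusted p = 0.570).

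HADH (NM_001046334), the hydroxyacyl-CoA dehydrogenase of medium and short chains, differed little between periods. On A_73_P049166 its signal was 1.39 to 1.60 in CONT with a median of 1.47, and 1.25 to 1.52 in REST with a median of 1.48. The change was -0.06 (SE 0.08, 95% interval -0.24 to 0.12, adjusted p = 0.660), and 4 cows were lower and 2 higher. Its other probe was well above background on 4 of 6 arrays in each group and was not tested.

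ACAA2 (NM_001035342) is the matrix thiolase that splits off acetyl-CoA. On A_73_119674 its signal was 3.05 to 3.37 in CONT with a median of 3.19, and 2.88 to 3.27 in REST with a median of 3.15. The change was -0.07 (SE 0.08, 95% interval -0.26 to 0.11, adjusted p = 0.595). The other 2 probes had changes of -0.11 and -0.08, and on all 3 probes cow 2 was higher and cows 1, 3, 4 and 6 were lower. With normexp the brightest probes of ECHS1, HADH and ACAA2 came to 0.08, 0.04 and 0.06.

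HADHA and HADHB form the trifunctional protein of the inner membrane, which takes long-chain intermediates through hydration, oxidation and thiolysis. The 3 HADHA (NM_174335) probes disagreed. The brightest, A_73_111792, ran from 0.83 to 1.33 in CONT with a median of 1.12 and from 0.87 to 1.46 in REST with a median of 1.03. Its groups overlapped almost wholly and its change was -0.03 (SE 0.09, 95% interval -0.24 to 0.18, adjusted p = 0.866), with 3 cows higher and 3 lower.

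A_73_120543 had a CONT signal of -1.14 at the lowest, -0.86 at the median and -0.09 at the highest. In REST it was -0.83, -0.17 and 0.36. The groups overlapped because cows differed, yet each cow was higher than itself, by 0.22 to 0.86. The change was 0.51 (SE 0.10, 95% interval 0.28 to 0.74, adjusted p = 0.0250), and 19 of 22 alternatives kept the call.

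A_73_P032211 was dimmer, well above background on 5 of 6 CONT and 6 of 6 REST arrays. Its CONT signal was -3.70 at the lowest, -2.28 at the median and -1.70 at the highest, and in REST it was -1.99, -1.24 and -0.82. All 6 cows were higher, by 0.49 to 2.43, with the largest change in cow 6, whose CONT array held the lowest value. The change was 1.03 (SE 0.23, adjusted p = 0.0345), and 0.75 without cow 6. With normexp it was 0.28 (adjusted p = 0.0418), so its size rests on how the background was removed.

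The differences between HADHA probes are given as a description, since the pairs were chosen after the values had been seen. The change of A_73_120543 exceeded that of A_73_111792 by 0.54 ± 0.34 (SD, n = 6 cows) and that of A_73_P032211 did so by 1.06 ± 0.60, each in 6 of 6 cows. A_73_P032211 met the filter on its REST arrays only, the group in which it was high. The change of A_73_P032211 exceeded that of A_73_120543 by 0.52 ± 0.84, in 5 of 6 cows. All 3 probes are listed under 1 transcript in the files, and where on it they lie was not analysed here. Whether HADHA is counted as higher depended on the probe, as A_73_120543, well above background on all 12 arrays, was called and A_73_111792, also above background on all 12, was not.

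**Figure D3:**
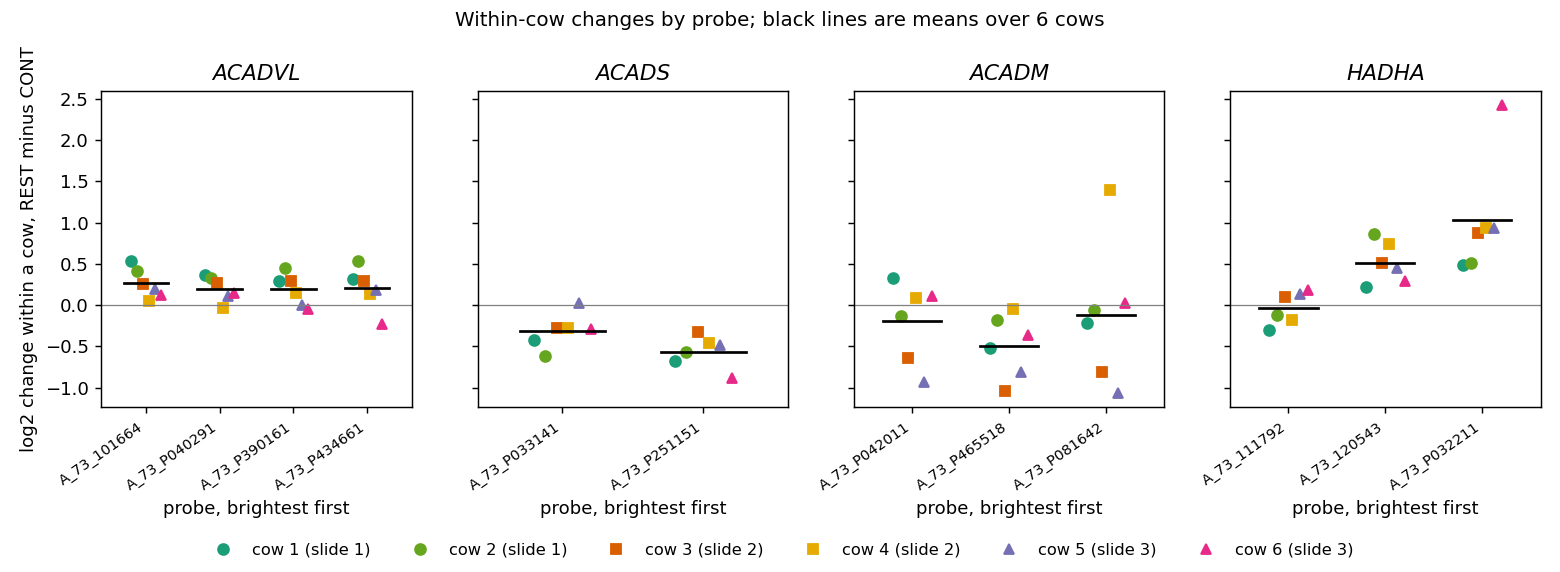
Within-cow log2 change (REST minus CONT, y axis) for every tested probe of ACADVL, ACADS, ACADM and HADHA, brightest probe first along the x axis, with 1 symbol per cow and a black line at the mean of 6 cows. The ACADVL means lie between 0.19 and 0.26, cow 4 stands at 1.40 on 1 ACADM probe, and the HADHA means step from -0.03 to 0.51 and 1.03.

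HADHB (NM_174336) supplies the thiolase of the same complex. On A_73_P049216 its signal was -2.62 at the lowest, -1.95 at the median and -1.09 at the highest in CONT, and -2.30, -1.52 and -1.19 in REST. Cows other than cow 5 were higher by 0.32 to 0.64, and cow 5, on the dim slide, was lower by 0.98. The change was 0.26 (SE 0.20, 95% interval -0.20 to 0.71, adjusted p = 0.438).

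Without cow 5 the HADHB change was 0.50 and was called (adjusted p = 0.0222), and without slide 3 it was 0.49 (adjusted p = 0.0370). With normexp it was -0.001. The other 2 HADHB probes did not meet the filter. Their mean changes were 0.59 and 0.39, with 5 and 4 of 6 cows higher, and cow 5 was higher on both.

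ETFDH (NM_001077130) hands electrons from electron transfer flavoprotein to ubiquinone. On A_73_P037236 its signal was -0.36 to -0.13 in CONT with a median of -0.27, and -0.39 to 0.23 in REST with a median of -0.10. Cow 6 was lower by 0.04 and the other 5 cows were higher, by up to 0.36. The change was 0.17 (SE 0.08, 95% interval -0.02 to 0.36) and was not called (adjusted p = 0.228). Its other 2 probes were well above background on 2 to 4 of 6 arrays per group and were not tested.

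Within single cows the 9 tested genes were split as well. The median change of the 9 genes was -0.07, 0.05, -0.02, -0.10, 0.03 and 0.00 in cows 1 to 6. Between 4 and 6 of the 9 genes were higher in any cow. ACADS was the lowest gene in 3 cows and HADHB the highest in 4.

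Other genes of fatty acid oxidation were taken from lists of pathway genes, with 1 probe per gene, the brightest. The lists were chosen with earlier results of these data known. The carnitine shuttle, which carries long chains into the matrix, held CPT1A and SLC25A20. Of 5 tested genes of 7, 2 were higher and 1 lower, beside 7.12% of genes higher and 9.10% lower over the array, with a median of -0.09. CPT1A, the outer membrane transferase that controls entry, changed by 1.70 (SE 0.11, adjusted p = 0.000852), from -2.30 ± 0.19 in CONT to -0.61 ± 0.28 in REST (SD, n = 6). Only 4 of its 6 CONT arrays were well above background, so it met the filter through REST only, and the change was 0.72 with normexp. SLC25A20, the carnitine-acylcarnitine carrier, changed by 0.87 (SE 0.10, adjusted p = 0.00476), and both were higher in 6 of 6 cows. CRAT, which acts on short acyl groups, changed by -0.34 (adjusted p = 0.0694), a call kept in 12 of 22 alternatives and lost with neither cow nor slide in the model (adjusted p = 0.112), with normexp (0.134) and without cow 1, 3, 4, 5 or 6 (0.112 to 0.171).

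Among 13 tested auxiliary genes of 16, which handle double bonds, electrons and side products, 3 were lower and none higher, beside 9.10% of genes lower over the array, with a median of -0.14. ETFA, a subunit of electron transfer flavoprotein, changed by -0.45 (adjusted p = 0.0424), with 6 of 6 cows lower, beside 0.17 for ETFDH, which takes its electrons. ECI1, the isomerase for unsaturated chains, changed by -0.26 (adjusted p = 0.0743), and HSD17B10 by -0.25 (adjusted p = 0.0822). None of the 3 was called with neither cow nor slide in the model (adjusted p = 0.172, 0.148 and 0.195). Of 22 alternatives, ETFA, ECI1 and HSD17B10 kept their calls in 17, 14 and 11. Of the 4 acyl-CoA dehydrogenases of amino acid breakdown, IVD of the leucine pathway was lower by 0.36 (adjusted p = 0.0478), ACADSB, ACAD8 and GCDH were not called, and the median was 0.09. The IVD call was lost with neither cow nor slide in the model (adjusted p = 0.113), with normexp (0.105), without cow 2 or 3 (0.143 and 0.102) and without slide 3 (0.105).

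Peroxisomes also oxidise fatty acids, with their own enzymes. Of 11 tested genes of 15, 3 were higher and none lower, beside 7.12% of genes higher over the array, with a median of -0.04. CROT, which makes carnitine esters of shortened chains, changed by 0.73 (adjusted p = 0.0421), SCP2 by 0.36 (adjusted p = 0.0421) and HSD17B4 by 0.28 (adjusted p = 0.0997). CROT was well above background on 5 of 6 CONT and 6 of 6 REST arrays and so met the filter through REST only, where it was high. It was 0.14 with normexp (adjusted p = 0.335), and HSD17B4 kept its call in 10 of 22 alternatives. With neither cow nor slide in the model SCP2 was called (adjusted p = 0.0753), and CROT (0.125) and HSD17B4 (0.222) were not. The CROT call was also lost without cow 1 or 4 (0.107 and 0.122). On the other tested probe of SCP2 the change was 0.01.

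Downstream of acetyl-CoA, calls ran 1 way. In the tricarboxylic acid cycle 7 of 18 genes were lower and none higher, with a median of -0.20, led by IDH2 (-0.64), SDHA (-0.57), OGDH (-0.41) and MDH2 (-0.41). In complex I of the respiratory chain 26 of 37 genes were lower and none higher, with a median of -0.30, led by NDUFS4 (-0.53), NDUFB2 (-0.50), NDUFV1 (-0.44) and NDUFA7 (-0.43). Over the array 9.10% of genes were lower. With neither cow nor slide in the model 5 and 10 genes of these lists were called, all lower. Without cow 1, 2 or 4 the tricarboxylic acid cycle had 3, 3 and 2 called genes and complex I had 13, 9 and 9, and with normexp the counts were 4 and 10. A difference between any list and the 9 beta-oxidation genes was not tested.

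**Figure D4:**
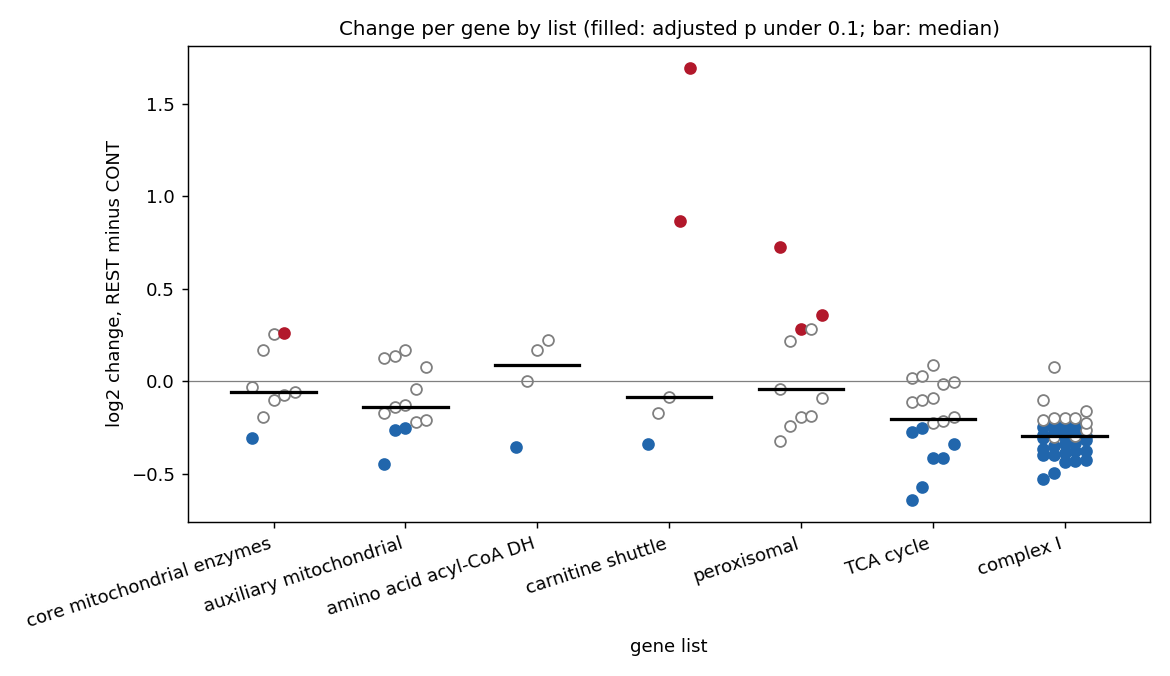
Log2 change per gene (REST minus CONT, y axis) in 7 gene lists (x axis), with filled points for called genes (red higher, blue lower), open points for the rest and bars for list medians. The 9 core mitochondrial genes centre on -0.06, the 18 tricarboxylic acid cycle genes on -0.20 and the 37 complex I genes on -0.30, and CPT1A stands at 1.70.

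Of 9 tested regulators of 12, 1 was called, beside 16.2% of genes over the array, and the median was -0.18. This was ESRRA, a nuclear receptor for genes of energy metabolism, higher by 0.42 (adjusted p = 0.0492). The ESRRA call was lost with neither cow nor slide in the model (adjusted p = 0.254), with the slide as a block (0.106) and without cow 1, 2 or 4 (0.111 to 0.133). PDK4, which restrains pyruvate oxidation, had a change of 1.01 (SE 0.42, adjusted p = 0.160), with 4 cows higher and 2 lower. Of its 6 tested probes, with changes of 1.01 to 1.23, 1 was called higher, and the mean change of the brightest by slide was 2.31, 1.28 and -0.57, the last on the dim slide 3. The coactivator PPARGC1A had a change of -0.85 (SE 0.30, adjusted p = 0.108), with 5 of 6 cows lower. PPARA did not meet the filter.

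Markers of cell types were measured beside these genes, and those given as higher or lower had adjusted p from 0.00727 to 0.0933 in the paired fit. With neither cow nor slide in the model the endothelial VWF and CLDN5 were called, and no marker of the other lists was. In the paired fit 16.2% of genes over the array were called, 7.12% higher and 9.10% lower. Of 10 tested luminal epithelial markers of 12, KRT8 (0.72) and KRT18 (0.52) were higher while CSN3 (-0.27) and CSN1S1 (-0.26) were lower. Their summed linear signal was 4500 to 5700 times the 75th percentile in CONT and 3704 to 4754 times in REST. The sums given here add probes of unlike brightness, so the brightest weigh most. In the luminal sum these were milk protein probes, with CONT means of 9.79 for CSN1S1 and 9.98 for CSN3. KRT8 (2.48) and KRT18 (1.09), which were higher in REST, weigh little in it. The lower luminal sum thus does not give the amount of luminal epithelium. Of 7 myoepithelial markers tested, CNN1 (-0.53) and ACTA2 (-0.37) were lower and KRT17 (0.45) higher, with sums of 98.7 to 193 and 90.9 to 181. Of 7 endothelial markers, VWF (0.54) and CLDN5 (0.74) were higher, with sums of 28.5 to 42.8 in CONT and 40.0 to 56.9 in REST. Not called were PECAM1 (0.32), EGFL7 (0.23), TEK (0.13), CDH5 (0.03) and KDR (-0.15).

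Of 8 genes listed as adipocyte markers only FABP4 (-0.35) and CIDEA (-0.27) were tested, both lower, with sums of 216 to 407 and 182 to 297. PLIN1, LEP, CIDEC and RETN did not meet the filter, and ADIPOQ and PLIN4 were matched to no probe. With most of the list untested, FABP4 and CIDEA do not give the amount of fat cells in the biopsies. Of 10 skeletal muscle markers, 8 did not meet the filter, ACTA1 was not called and CKM was lower (-0.36), with sums of 2.05 to 3.74 and 1.73 to 2.95. Leukocyte markers gave 1 call of 9, CD3E (0.35), beside 16.2% of genes called over the array. Their sums were 20.0 to 29.4 and 24.6 to 32.3. Of the 9, 5 had positive and 4 negative changes, the latter with PTPRC at -0.15 and CD2 at -0.17, both uncalled. Fibroblast markers gave 1 of 7, FAP (0.54), with sums of 35.1 to 65.3 and 27.0 to 75.6. The list median was -0.31, with COL1A1 at -0.54, COL3A1 at -0.48 and LUM at -0.41, none of these called on the brightest probe. Of 5 erythrocyte markers the only tested, AHSP, was not called, with sums of 0.295 to 0.649 and 0.191 to 0.549. The part of cell makeup in the changes of the beta-oxidation genes was not tested.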

How the data were processed

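MG biopsies of 6 Holstein cows (CONT and REST, 12 arrays) were measured on 1-colour Agilent arrays. Per the file headers, the authors extracted the slides with Feature Extraction 11.0.1.1. The deposited intensity values are background-subtracted, detrended processed signals on a linear scale with no scaling between arrays, and the deposited series table holds the same values in all 45220 cells of each array, within a relative tolerance of 1e-06. The methods name a shift to the 75th percentile and a Benjamini-Hochberg threshold of 0.10.

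Here, 1 to 13 spots per array, none of a member, carried a scanner mark for uneven pixels or for differing from their repeats and were left out, repeat spots averaged as log2 values, and the 75th percentile over non-control probes subtracted. The percentile was first taken over spots, where ACADVL was not called. The percentile over probes, which matched the counts of an earlier analysis of these data, was adopted after those results were known and gave ACADVL its call, and the first setting is kept as an alternative. Symbols came from a RefSeq gene table (ARS-UCD2.0) for 27131 probes (62.2%). The array design names an older assembly, so no positions are given, and no sequences of the members were analysed here. Probes well above background on all arrays of a group (19406) were fitted with limma 3.58.1 in R 4.3.3, with cow as a block. Of these, 3101 were called and 5335 had an unadjusted p under 0.05. The fit was also run on simulated arrays as a check of the code. Those arrays had independent probes and no dim slide, so that run does not bear on the calls.

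The labels give the same animal for both samples of a cow. Deviations from group means correlated at 0.36 to 0.57 between samples of a cow and at -0.33 to 0.13 between cows, over 19398 probes. The brightest tested probe stood for a gene. Named were all members, up to 4 called genes of each other list by size of change, 5 genes nearest ACADS, and the markers that were called. PDK4, PPARGC1A and uncalled genes were named after their values were seen. Members and lists were chosen with earlier results of these data known. Alternatives covered normalization, background correction (normexp, offset 50), filters, marked spots, pairing, slide, moderation, an unpaired t-test, the probe per gene and each cow left out. The number of arrays limits the precision. Python 3.11.15 with pandas 2.3.3 and matplotlib 3.10.9 read the files and drew the plots.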

Additional observations from a re-analysis of the deposited data

Results flagged for a closer look

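In groups of 6 arrays, an extreme value was examined further where its gap to the nearest other value, as a share of the group's range, exceeded Dixon's 95% critical value. Of 56 groups of member values, 3 did so, beside the 2.8 that chance gives at 5%. On ECHS1 A_73_P297046, cow 3 in CONT was 4.71 while the other CONT values were 4.93 to 5.02, a share of 0.709. Cow 3 was the lowest of the REST values as well. On ACADL A_73_115075, cow 2 in CONT was -6.35 with the nearest value at -4.79 (0.665), and on ACADL A_73_P508173, cow 2 in REST was -6.69 with the nearest at -5.03 (0.753). Both ACADL probes were near background and were not tested.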

How the results depend on the processing

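Of all tested probes 3101 were called. The number was 384 with no filter on dim probes, 1845 without moderation, 1901 with the slide as a block in place of the cow, 732 with the methods' t-test, and 1052 to 3288 without each cow in turn. Without the replicate block, so without the pairing by cow, 831 were called, the count of called member genes by brightest probe was 0 in place of 2, and 10 called genes of the other oxidation lists became 3. Calls lower in REST were 54.0% of all calls, 62.6% without the block and 46.1% with normexp and the percentile shift. The count of called member genes, 2 in the paired fit, was 1 with the median shift, with quantile normalization, with normexp under either normalization and with the percentile over spots, the setting computed first. It was 0 with no filter, without moderation and with the methods' t-test, and 0 to 2 without each cow, where the 2 genes without cow 5 were ACADS and HADHB. ACADVL lost its call without each of the 6 cows. Called genes of the other oxidation lists were 2 with no filter, 6 with normexp and the percentile shift, 5 with the methods' t-test, and 4 to 13 without each cow. In the tricarboxylic acid cycle and complex I, called genes ranged from 0 (no filter) to 8 and 31.

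The changes that turned sign, those of HADHA, HADHB, HADH, ECHS1 and ACAA2, were not called in the paired fit. HADHA came to 0.018 with normexp and quantile normalization and 0.039 with normexp and the percentile shift, and ranged from -0.073 to 0.025 without each cow in turn (above 0 without cow 1, and 0.0021 without cow 4). It was 0.50 as the mean of its probes and 1.03 on its dimmest probe, which met the filter through REST only and is part of that mean. With normexp and the percentile shift HADHB came to -0.0011, HADH to 0.039, ECHS1 to 0.077 (0.029 with normexp and quantile normalization) and ACAA2 to 0.058. The cause of these shifts was not tested. Leaving out slide 3 was chosen after seeing the data. The changes of ACADVL, ACADM, ACADS and ETFDH kept their sign in all alternatives computed. The weakest signals, of slide 3, limit what can be read from dim probes, and 8 of 28 member probes could not be tested.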
